A study of Mus musculus with 6 samples.

Results

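The insulin-like growth factor (IGF) axis was examined through 10 genes of the deposited count table: the ligands Igf1 and Igf2, the receptors Igf1r and Igf2r, and the binding proteins Igfbp2, Igfbp3, Igfbp4, Igfbp5, Igfbp6 and Igfbp7. The genes were taken by name, and all 10 were found among the 55385 mouse gene IDs of the table. IGF1 and IGF2 are secreted growth factors that act through IGF1R, a receptor tyrosine kinase that signals to the PI3K-AKT and MAPK pathways. IGF2R carries no kinase and removes IGF2 from the cell surface, and the binding proteins hold the ligands outside the cell and set how much of them reaches the receptor. In skin, IGF1 is known as a product of dermal fibroblasts that acts on keratinocytes, which carry the receptor.

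RNA was sequenced from PDVC57, an established mouse line of squamous cell carcinoma. Of the 6 libraries, 3 carry the label Sox2 KO (the transcription factor gene Sox2 knocked out) and 3 are labelled as Sox2 overexpression. According to the series' design text, carcinoma cells low or high in Sox2 were taken from grafted tumours, to look for programmes of tumour stem cells that act on neutrophils. How Sox2 was supplied, how many clones were used, the host of the grafts and how cells were separated from host tissue are not given in the sources used here, and no unmodified PDVC57 cells were analysed here, so each difference is overexpression against knockout. Nothing in the labels says that the replicates came from separate tumours, so the p-values measure the spread between these libraries, which may be technical.

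Library totals lay between 31247976 and 38543221 counts over mouse genes. Sox2 had 25 to 49 counts in the knockout libraries and 2566 to 4095 in the overexpression libraries, so its level separated the groups as labelled. All 10 epithelial markers had counts in every library, and their summed level was 1804 to 4178 CPM (counts relative to the TMM-scaled library total) with knockout and 5654 to 8812 CPM with overexpression. Single epithelial markers moved unevenly, with log2 fold changes from 0.15 (Itga6) to 3.30 (Krt15). Of these 10 markers, 6 had an edgeR adjusted p under 0.05 as higher, as did 13.6% of all tested genes. Krt14, Dsp and Itga6 overlapped between groups. Fibroblast markers separated the libraries much further. All 10 were lower with overexpression, their summed level was 55994 to 83767 CPM with knockout and 255 to 404 CPM with overexpression, and none of the 10 was at 0 in the overexpression group. Endothelial markers summed to 26.9 to 114 CPM and 12.3 to 19.5 CPM, leukocyte markers to 23.3 to 117 CPM and 13.8 to 28.4 CPM, mural markers to 440 to 575 CPM and 90.8 to 130 CPM, Schwann cell markers to 1.89 to 7.94 CPM and 1.49 to 2.25 CPM, and adipocyte markers to 3.17 to 6.99 CPM and 0.305 to 0.575 CPM. Of the 5 adipocyte markers, Lep was at 0 in every library, Adipoq and Cidec were at 0 in the knockout libraries, and Fabp4 was lower with overexpression (97, 93 and 212 counts against 0, 9 and 5). In bulk RNA, fewer cells of a type and less RNA per cell cannot be told apart.

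Of the 10 IGF axis genes, 6 passed the threshold (adjusted p under 0.05, edgeR quasi-likelihood test), 5 of them lower and 1 higher with overexpression. Among all 18504 tested genes, 31.6% passed, 18.0% as lower and 13.6% as higher. Igf1, Igfbp2, Igfbp4, Igfbp5 and Igfbp6 were the genes that fell, each by at least 32.6-fold, whereas 7.12% of tested genes fell at least 16-fold. The median log2 fold change over the 10 genes was -3.60, and over all tested genes it was -0.016. None of the 10 genes lay near -3.60. The 5 that fell had fitted values of -8.62 to -7.04, and the other 5 had -0.16 to 1.39. Igf2 rose from a low level under this scaling but not when libraries were scaled to epithelial markers, and both receptors, Igfbp3 and Igfbp7 did not pass the test.

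**Figure D1:**
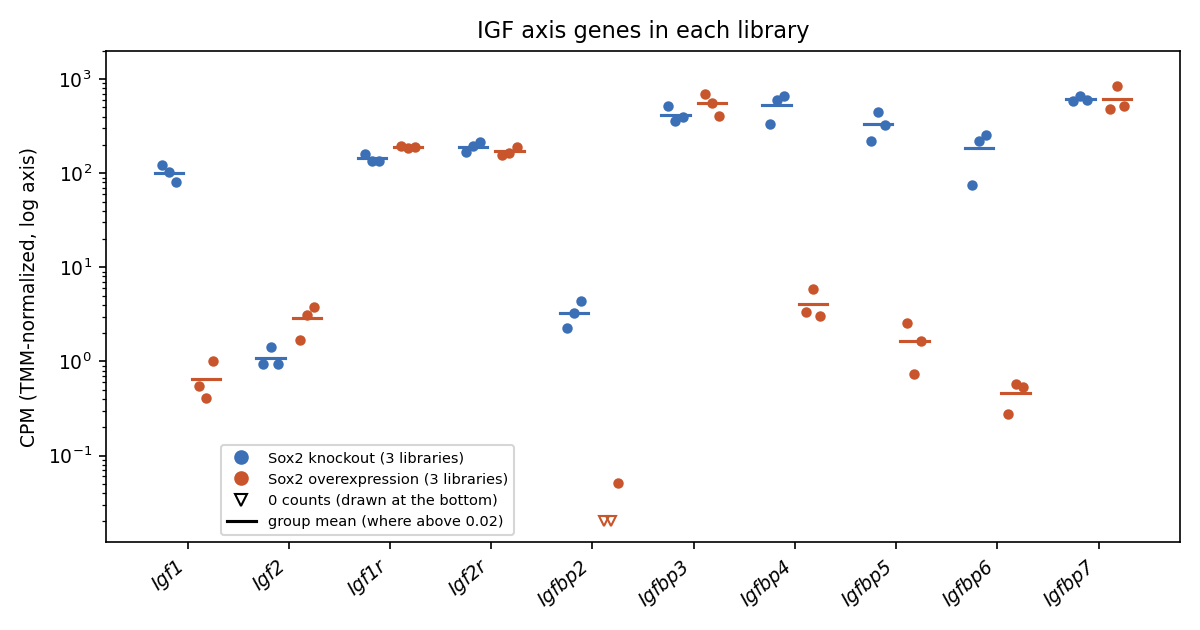
Level of each IGF axis gene in CPM (log axis), with 1 point per library and a bar at the group mean, for 3 Sox2 knockout and 3 Sox2 overexpression libraries; triangles mark 0 counts. Igf1, Igfbp2, Igfbp4, Igfbp5 and Igfbp6 lie far lower in every overexpression library, while Igf1r, Igf2r, Igfbp3 and Igfbp7 lie at like heights in both groups.

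The sequences just upstream of 4 binding protein genes are shown because these genes, members of 1 family, behaved differently in these libraries: Igfbp4 and Igfbp6 fell, and Igfbp3 and Igfbp7 did not pass the test. They come from RefSeq (GRCm38.p6), in which all 10 genes had an entry (14 start sites), and run 5′ to 3′ on the gene's strand from 250 bases before the start to the base before it. Capitals mark the motifs searched, each on both strands. The core bound by SOX factors was written as CATTGT and the TATA box as TATAAA. The box named for its letters was CCAAT. For the box rich in G and C, called the GC box, the letters GGGCGG were used. The motif of AP-1 factors was TGANTCA. No capitalised matches overlap.
Igfbp4, chr11:99040994-99041243, plus strand: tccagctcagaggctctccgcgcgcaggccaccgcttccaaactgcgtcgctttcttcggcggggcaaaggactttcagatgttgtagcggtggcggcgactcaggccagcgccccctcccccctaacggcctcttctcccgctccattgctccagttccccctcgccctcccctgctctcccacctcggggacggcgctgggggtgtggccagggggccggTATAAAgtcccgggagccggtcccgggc
Igfbp6, chr15:102143936-102144185, plus strand: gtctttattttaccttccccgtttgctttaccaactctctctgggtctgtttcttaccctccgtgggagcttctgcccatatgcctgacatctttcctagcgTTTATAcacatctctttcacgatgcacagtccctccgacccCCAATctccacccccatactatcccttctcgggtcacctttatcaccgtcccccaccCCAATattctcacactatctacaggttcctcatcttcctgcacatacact
Igfbp3, chr11:7213924-7214173, minus strand: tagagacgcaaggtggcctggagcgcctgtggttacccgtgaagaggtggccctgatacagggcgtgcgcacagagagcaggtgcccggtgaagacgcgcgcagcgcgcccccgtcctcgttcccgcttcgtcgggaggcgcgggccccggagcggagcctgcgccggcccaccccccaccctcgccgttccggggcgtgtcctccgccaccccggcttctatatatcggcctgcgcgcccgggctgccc
Igfbp7, chr5:77408046-77408295, minus strand: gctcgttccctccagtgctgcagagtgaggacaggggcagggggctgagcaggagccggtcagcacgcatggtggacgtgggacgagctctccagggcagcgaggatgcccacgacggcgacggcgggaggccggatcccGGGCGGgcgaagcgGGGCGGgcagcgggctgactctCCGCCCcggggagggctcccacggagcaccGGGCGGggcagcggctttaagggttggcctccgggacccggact

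The upstream stretch of Igfbp4 held a TATAAA 28 bases before the start, that of Igfbp6 held 2 CCAAT matches and a TATAAA on the other strand, that of Igfbp7 held 4 GC boxes, and that of Igfbp3 held none of the 5 motifs. The RefSeq start used for Igfbp6 lies before the start of the gene in GENCODE M21 (102144362). For Igfbp6 and Igfbp7, the first bases from the RefSeq start onward were not found in an M21 transcript. The share of G and C was 49.6% for Igfbp6, near the median of 52.4% over all windows, and 69.2% for Igfbp4, 73.2% for Igfbp3 and 74.0% for Igfbp7. Of the falling binding protein genes not shown, Igfbp5 held none of the 5 motifs, like Igfbp3 (58.8% G and C). Igfbp2 held 3 GC boxes at its first start (67.2%) and an AP-1 motif at its second (56.4%). Among the binding protein genes that fell, no motif was common to all. The SOX core CATTGT was present in 1 of the 14 upstream windows of the 10 genes, at an internal start of Igf2, and in 10.7% of all 32851 windows of that length. The TATA box was present in 12.4% of all windows, the CCAAT box in 33.8%, the GC box in 32.7% and the AP-1 motif in 6.75%. The matches describe letters in these windows and are not measured binding sites.

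Igf1 (ENSMUSG00000020053, chromosome 10, 87858265 to 87937042, plus strand, GRCm38) was counted 4125, 3084 and 2952 times with knockout (replicates 1 to 3, the order used throughout) and 18, 12 and 40 times with overexpression. Every overexpression library was far below every knockout library. Mean Igf1 was 101 ± 20.0 CPM with knockout and 0.656 ± 0.317 CPM with overexpression (SD, n = 3 each). It fell 150-fold, with a log2 fold change of -7.23 (SE 0.34; edgeR, adjusted p = 2.09e-06). Under the 13 alternatives its log2 fold change stayed between -8.78 and -6.97.

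Igf2 (ENSMUSG00000048583, chromosome 7, 142650766 to 142666816, minus strand), the fetal growth factor gene that is expressed from the paternal allele, was close to the lower end of detection in all libraries. It had 32, 43 and 34 counts with knockout and 56, 92 and 151 with overexpression. The groups did not overlap, as for 50.9% of tested genes, and the level rose from 1.10 ± 0.281 to 2.88 ± 1.07 CPM (SD over 3 libraries each), a log2 fold change of 1.39 (SE 0.40; edgeR, adjusted p = 0.0281), which turned to -0.11 when libraries were scaled to epithelial markers. Leaving out a single library ended the call in 4 cases: the edgeR adjusted p was 0.0731 without KO replicate 1, 0.0658 without KO replicate 3, 0.0692 without overexpression replicate 2 and 0.104 without overexpression replicate 3, within 0.00646 to 0.870 over all alternatives.

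Reads of Igf2 can also be assigned to Gm49394, a readthrough gene that shares 3596 bases of exons with it on the same strand. Gm49394 had 44, 0 and 0 counts with knockout and 11, 29 and 0 with overexpression. With both genes summed, an alternative chosen after seeing the data, knockout replicate 1 had 76 counts and overexpression replicate 1 had 67, the groups overlapped, and the log2 fold change was 1.12 (edgeR, adjusted p = 0.0762). The call of Igf2 was not kept with both gene models summed.

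The order of the ligands by count differed between groups. Igf2 had 0.00776 to 0.0139 counts for each Igf1 count in the knockout libraries and 3.11 to 7.67 in the overexpression libraries, a ratio that needs no normalization. Counts assigned to Gm49394 are left out of this ratio. An exact two-sided permutation test of this ratio gave p = 0.1, the smallest that 3 libraries against 3 allow. The ratio, like the others given within libraries here, was chosen after the values were seen.

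The receptors were measured deeply in every library. Igf1r (ENSMUSG00000005533, chromosome 7, 67952827 to 68233668, plus strand) was at 162, 136 and 136 CPM with knockout and at 196, 187 and 192 CPM with overexpression. The groups did not overlap, and the difference was small: a log2 fold change of 0.41 (SE 0.14) and a 95% interval of 0.085 to 0.73, which did not pass after adjustment over all genes (edgeR, adjusted p = 0.0578). It passed as higher in the DESeq2 test (adjusted p = 0.0309) and without overexpression replicate 2 (edgeR, 0.0349). Under the epithelial scaling Igf1r was instead called lower, with a log2 fold change of -1.09 (edgeR, adjusted p = 0.0296). Over all alternatives, in either direction, the adjusted p ranged from 0.0296 to 0.190.

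Igf2r (ENSMUSG00000023830, chromosome 17, 12682406 to 12769664, minus strand), the receptor that clears IGF2 and also sorts lysosomal enzymes, was at 168, 194 and 213 CPM with knockout and at 157, 165 and 191 CPM with overexpression. These groups overlapped. The log2 fold change was -0.16 with a 95% interval of -0.52 to 0.19 (edgeR, adjusted p = 0.459). It was -1.73 under the epithelial scaling (edgeR, adjusted p = 0.000927). In counts, Igf1r stood at 0.637 to 0.964 of Igf2r with knockout and at 1.01 to 1.25 with overexpression, ranges that do not overlap (exact permutation p = 0.1, two-sided).

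Of the binding proteins, 4 fell with overexpression. Igfbp4 (ENSMUSG00000017493, chromosome 11, 99041244 to 99054392, plus strand) binds IGFs until it is cut by the protease PAPP-A. It had 11320, 18189 and 24283 counts with knockout and 110, 172 and 119 with overexpression. The level went from 533 ± 177 to 4.06 ± 1.53 CPM (SD over 3 libraries each), a log2 fold change of -7.04 (SE 0.41; edgeR, adjusted p = 4.83e-06), or 132-fold lower.

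Igfbp5 (ENSMUSG00000026185, chromosome 1, 72857932 to 72874884, minus strand), which also binds extracellular matrix, had 7451, 13510 and 11942 counts with knockout and 84, 22 and 65 with overexpression. No overexpression library came near the knockout libraries, and the log2 fold change was -7.63 (SE 0.49; edgeR, adjusted p = 8.38e-06). Igfbp6 (ENSMUSG00000023046, chromosome 15, 102144362 to 102149511, plus strand) prefers IGF2 over IGF1 as a ligand. It had 2557, 6657 and 9301 counts with knockout and 9, 17 and 21 with overexpression. Its log2 fold change of -8.62 (SE 0.58; edgeR, adjusted p = 1.12e-05) was the lowest fitted value among the 10 genes, although its 95% interval of -9.96 to -7.29 holds the fitted value of Igfbp5.

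Igfbp2 (ENSMUSG00000039323, chromosome 1, 72824503 to 72852474, plus strand) was the least abundant binding protein gene with knockout, at 78, 98 and 160 counts, and had 0, 0 and 2 counts with overexpression. Because every overexpression library was within 3 counts, the size of the fall is known only as a bound: the knockout mean of 3.30 CPM was at least 32.6-fold higher than 3 counts in overexpression replicate 2, whose effective depth was the lowest among the overexpression libraries. The test called it lower (edgeR, adjusted p = 0.00014). Its only overexpression counts came from replicate 3, without which the gene was at 0 in that group.

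Within the knockout group the falling genes did not share an order. Igf1 was highest in knockout replicate 1, at 121 CPM against 102 in replicate 2 and 80.9 in replicate 3. Igfbp2, Igfbp4, Igfbp5 and Igfbp6 were lowest in that same library, Igfbp4 at 332 CPM against 601 and 666, and Igfbp6 at 74.9 CPM against 220 and 255. The summed fibroblast markers were also lowest there, at 55994 CPM against 83767 in replicate 2 and 78180 in replicate 3. Single fibroblast markers differed in this. Pdgfra (259, 258 and 223 CPM) and Postn (3046, 2934 and 2145 CPM) were highest in replicate 1, as Igf1 was, and each of the other fibroblast markers was lowest there.

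The remaining binding protein genes were abundant in both groups. Igfbp3 (ENSMUSG00000020427, chromosome 11, 7206086 to 7213923, minus strand), the main IGF carrier of serum, was at 512, 355 and 394 CPM with knockout and at 699, 551 and 405 CPM with overexpression. The groups overlapped, with a log2 fold change of 0.39 and a 95% interval of -0.14 to 0.93 (edgeR, adjusted p = 0.236), and of -1.06 under the epithelial scaling. Igfbp7 (ENSMUSG00000036256, chromosome 5, 77349240 to 77408041, minus strand), a secreted protein with low affinity for IGFs, was at 587, 655 and 602 CPM with knockout and at 484, 843 and 515 CPM with overexpression. Both group means were close, at 615 ± 35.8 and 614 ± 199 CPM (SD over 3 libraries each), and the 95% interval of the log2 fold change was -0.52 to 0.52 (edgeR, adjusted p = 0.997). Under the epithelial scaling Igfbp7 was called lower, with a log2 fold change of -1.48 (edgeR, adjusted p = 0.00335), close to the median of all genes there (-1.52). Its exons overlap 85 bases of Polr2b on the other strand, and the strand setting of the counting is not given.

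**Figure D2:**
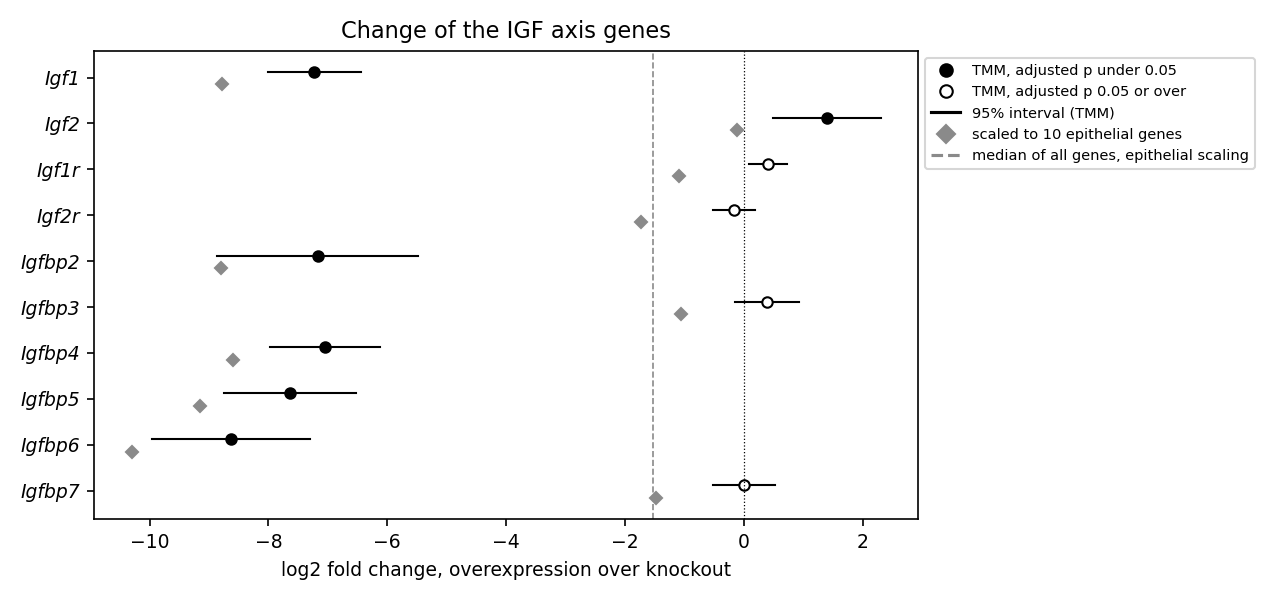
Log2 fold change of overexpression over knockout for each IGF axis gene with TMM scaling (circles, filled where the adjusted p is under 0.05, with 95% intervals) and after scaling to 10 epithelial markers (diamonds). The epithelial scaling moved the median of all genes from -0.016 to -1.52 (dashed line), and the 5 genes that fell stay well below that line.

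The difference in response within the binding protein family does not depend on a scaling between libraries. In counts, Igfbp4 stood at 0.648, 1.69 and 1.69 of Igfbp3 in the knockout libraries and at 0.0048, 0.0106 and 0.00742 in the overexpression libraries. Igfbp6 stood at 0.128, 0.336 and 0.424 of Igfbp7 with knockout and at 0.000567, 0.000682 and 0.00103 with overexpression. Neither ratio overlapped between groups, whereas Igfbp3 over Igfbp7 did (0.542 to 0.873 and 0.654 to 1.44). Exact two-sided permutation tests gave p = 0.1, p = 0.1 and p = 0.5, where 0.1 is the smallest p possible. The genes of each ratio were picked with their changes in these libraries known, so these tests add no separate support.

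Levels of different genes were compared per kilobase of exon (CPM per kb). In the knockout libraries Igfbp7 was highest at 508 CPM per kb, followed by Igfbp6 (165), Igfbp3 (134) and Igfbp4 (121), whose ranges over the libraries overlapped, and then by Igfbp5 (55.1), whose range overlapped that of Igfbp6 but not those of Igfbp3 and Igfbp4. The receptor Igf2r (20.6) came next, then Igf1 (10.2) and Igf1r (8.60), which overlapped, and Igfbp2 (1.79) and Igf2 (0.192) were the lowest. In the overexpression libraries the order was Igfbp7 (508), Igfbp3 (176), Igf2r (18.3) and Igf1r (11.4), with every other gene under 1 CPM per kb on average. There Igfbp4 was at 0.92 and Igf1 at 0.0662, and the ranges of Igf2 (0.503), Igfbp6 (0.414) and Igfbp5 (0.275) overlapped.

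The make-up of the binding protein transcripts therefore differed between groups. Igfbp7 and Igfbp3 made up 52.1 ± 5.90% and 14.1 ± 4.94% of the summed CPM per kb of the 6 genes with knockout, and 73.4 ± 8.24% and 26.4 ± 8.25% with overexpression (SD, n = 3 each). Igfbp4, Igfbp5 and Igfbp6 together accounted for most of the rest with knockout, at 9.06% to 14.2%, 4.39% to 6.98% and 8.13% to 21.6%, and for at most 0.15%, 0.0682% and 0.0858% in any overexpression library. The summed level itself was 829 to 1066 CPM per kb with knockout and 557 to 875 CPM per kb with overexpression, so those ranges overlapped. Shares in each library are drawn in the plot of binding protein make-up.

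**Figure D3:**
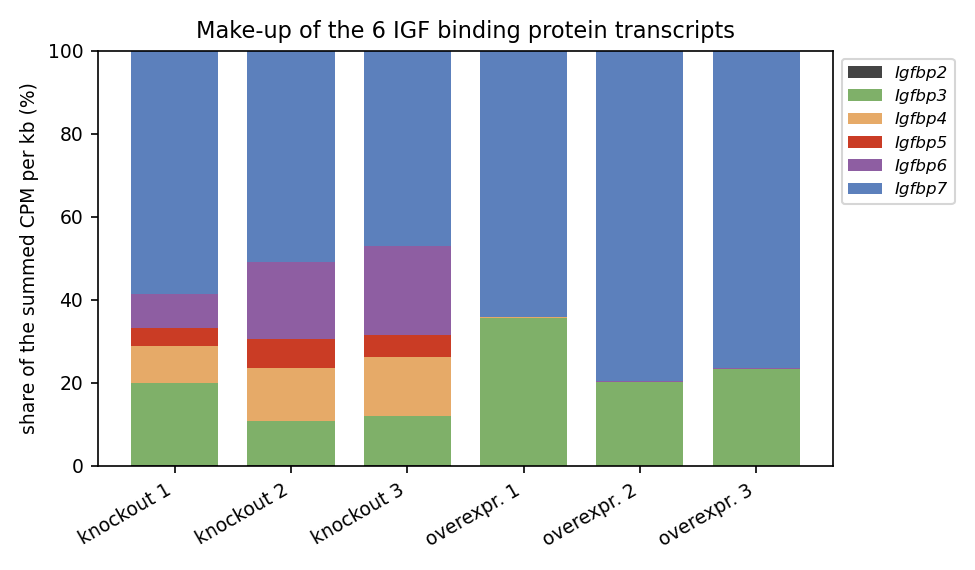
Share of each binding protein gene in the summed CPM per kb of the 6 genes, as a stacked bar for each of the 6 libraries (percent). Knockout libraries show 5 visible parts, and overexpression libraries consist almost wholly of Igfbp7 (64.1% to 79.7%) and Igfbp3 (20.1% to 35.7%).

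Markers of several other cell types moved with the fall of the 5 genes. The 10 fibroblast markers had log2 fold changes from -9.98 to -6.91, a span that holds the values of Igf1, Igfbp2, Igfbp4, Igfbp5 and Igfbp6. The pericyte gene Rgs5 (-8.67), the growth factor receptor gene Pdgfrb (-7.18) and the endothelial genes Cdh5 (-7.64) and Kdr (-6.82) fell by amounts in or near that span, chosen here after their values were seen. Of the mural markers, 4 were lower and Notch3 was higher, and of 5 tested endothelial markers 4 were lower. Over all tested genes 18.0% were lower and 13.6% higher. The other tested markers of these lists changed less. Cspg4 had a log2 fold change of -5.07, Acta2 of -2.30 and Notch3 of 0.80. Among the endothelial genes, Vwf was at -4.08, Pecam1 at -2.41 and Tek at -0.74 (edgeR, adjusted p = 0.216 for Tek). Of 5 tested leukocyte markers, 3 were lower: Ptprc (-6.34), Lyz2 (-3.22) and Itgam (-2.85). Csf1r (0.86) and Cd68 (0.49) did not pass (edgeR, adjusted p = 0.103 and 0.356).

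Ratios of counts to each of the 10 fibroblast markers were then taken within libraries, a comparison added after seeing the data. Igf1 counts relative to Pdgfra, a receptor gene typical of fibroblasts whose exons overlap opposite-strand genes, were 0.363 to 0.467 with knockout and 0.343 to 0.519 with overexpression. This ratio overlapped between groups, and so did those to 5 other markers, whereas Igf1 relative to Dpt (0.111 to 0.453 and 0.80 to 1.80), Lum, Dcn and Postn was higher in every overexpression library. Over the 10 markers the mean log2 ratio of Igf1 differed between groups by -0.48 to 2.62, with a median of 0.50, beside its log2 fold change of -7.23. For Igfbp4 the groups overlapped for 6 markers and were higher with overexpression for 4, with a median difference of 0.82. Igfbp5 overlapped for 7 markers and was higher for 3 (median 0.099). Igfbp6 overlapped for 7, was higher for 1 and lower for 2 (median -0.67). Several of the overexpression ratios rest on few counts. There Dpt had 10, 15 and 28 counts, Lum 29, 19 and 38, and Fap 11, 7 and 9. Pdgfra had 40, 35 and 77, Igf1 18, 12 and 40, and Igfbp6 9, 17 and 21. For such pairs a few reads can decide whether the groups overlap. Col1a1 had at least 3388 counts there. The part of fibroblast RNA in the fall was not tested beyond these ratios.

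**Figure D4:**
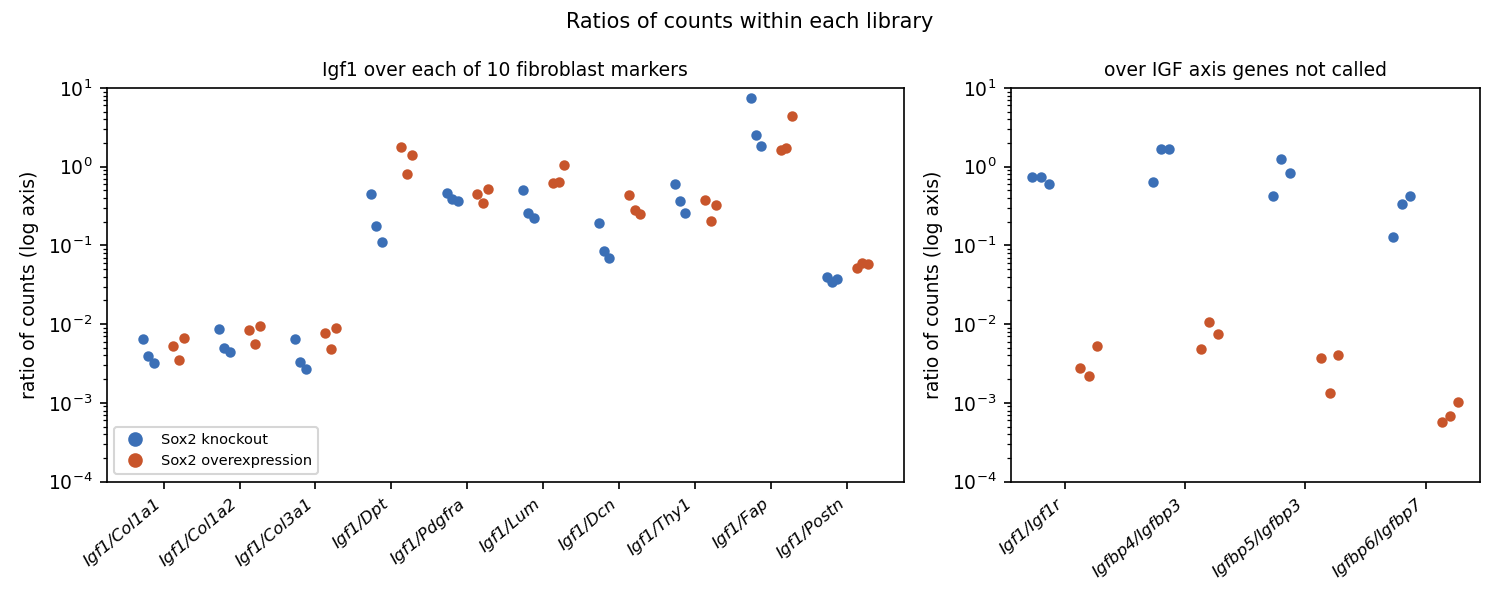
Ratios of counts within each library (log axis) for Igf1 over each of 10 fibroblast markers (left) and for 4 IGF axis genes that fell over IGF axis genes that did not pass the test (right), with 1 point per library. On the left the groups overlap for 6 markers and are higher with overexpression for 4; on the right they lie far apart, Igf1 over Igf1r at 0.596 to 0.75 and 0.00218 to 0.00527.

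Over all tested genes with an average log2 CPM of at least 4, the levels most like those of Igf1 across the 6 libraries were those of Dchs1, a protocadherin gene, Pdgfra, and Adamts12, a secreted protease gene. After centring, their log2 CPM differed from that of Igf1 by a root-mean-square of 0.17, 0.20 and 0.23. Nearest to Igf1r were Stam2, Gpbp1l1 and Proser1, with values of 0.027, 0.028 and 0.028 and log2 fold changes of 0.43, 0.46 and 0.37 that turned below 0 under the epithelial scaling. These distances only describe 6 libraries in 2 groups, and many genes share such a pattern.

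Other genes of the pathway were read from lists chosen for their known role. Of 62 genes, 52 were tested and 17 passed the threshold (32.7%), near the background of 31.6%. Of these, 13 were lower and 4 higher, and the median log2 fold change was 0.024.

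Insulin genes were almost absent, with 1 count of Ins1 and 0 of Ins2 over all libraries. The insulin receptor gene Insr did not pass (log2 fold change 0.28, 95% interval -0.078 to 0.64, edgeR adjusted p = 0.207), and Igf1r had 2.62 to 3.40 counts for each Insr count with knockout and 3.11 to 3.66 with overexpression. Insrr, which encodes an insulin receptor-related receptor, fell from 1.28 ± 0.582 to 0.137 ± 0.0407 CPM (SD, n = 3 each), on few counts. Igfbp1, a binding protein made mainly in liver, had 1 count in all. Among the RNA-binding proteins named for Igf2 mRNA, Igf2bp2 rose from 110 ± 9.39 to 168 ± 14.3 CPM (SD over 3 libraries each), a log2 fold change of 0.61 (edgeR, adjusted p = 0.0127) that was -0.92 under the epithelial scaling. Its adjusted p was 0.0664 without knockout replicate 2, the highest over the alternatives, of which the lowest was 0.00105.

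Proteases that cut IGF binding proteins and their inhibitors were all tested. Of these 7 genes, 4 were lower and 0 higher (18.0% and 13.6% over all tested genes), and their median was -1.89 on the log2 scale against -0.016 over all genes. Adam12, a membrane metalloprotease, fell from 265 ± 46.8 to 13.8 ± 6.70 CPM (SD over 3 libraries each), and the serine protease gene Htra1 fell from 454 ± 32.6 to 103 ± 36.9 CPM (SD, n = 3 each). Stc1, an inhibitor of PAPP-A whose exons overlap the opposite-strand gene Gm41192, fell by 2.90 on the log2 scale from 1.28 CPM. Pappa2, which shares 310 exon bases with 1600012P17Rik on its own strand, was lower by 1.89 on the log2 scale (edgeR, adjusted p = 0.0351), with a call that was lost in every fit without 1 library other than knockout replicate 3 (adjusted p 0.0514 to 0.149, within 0.000134 to 0.149 over all alternatives). Without knockout replicate 2 its log2 fold change was -1.25. Pappa itself, which encodes PAPP-A, was at 18.9 ± 5.93 CPM with knockout and 16.7 ± 6.68 CPM with overexpression (SD, n = 3 each; edgeR, adjusted p = 0.698).

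Among 12 genes for proteins that share the IGFBP-type domain, 9 were tested, 5 were lower and 0 higher, where 18.0% of all tested genes were lower. Most of these were matricellular CCN proteins and HTRA proteases. Ccn3 had 1270, 2200 and 2898 counts with knockout and 7, 0 and 0 with overexpression, and without overexpression replicate 1 it was at 0 in that group. Ccn5, Htra3 and Ccn4 had log2 fold changes of -6.61, -5.55 and -5.11, and that of Ccn5 was -7.24 without overexpression replicate 2. Ccn1 stood at 869 ± 297 and 1214 ± 464 CPM (SD, n = 3 each) and did not pass (edgeR, adjusted p = 0.292).

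Most receptor adaptors and most genes of the PI3K-AKT-mTOR-FOXO relay did not pass the test under TMM scaling. That does not show that they were expressed alike. Of 8 tested adaptors, 2 were lower (25% called in all, near the background of 31.6%). Grb10, an imprinted inhibitor of the insulin and IGF1 receptors, fell from 94.9 ± 28.0 to 0.254 ± 0.185 CPM (SD over 3 libraries each), a log2 fold change of -8.48 (edgeR, adjusted p = 4.55e-06) that was -9.15 without overexpression replicate 3. Its relative Grb14 was lower by 1.18 on the log2 scale (edgeR, adjusted p = 0.032), a call that ended when KO replicate 2 (0.0671), KO replicate 3 (0.0938), overexpression replicate 1 (0.0897) or overexpression replicate 3 (0.104) was left out, within 3.89e-05 to 0.104 over all alternatives. Irs1 and Irs2, the main docking proteins of both receptors, had log2 fold changes of -0.32 and 0.24 (edgeR, adjusted p = 0.18 and 0.234), and exons of both overlap genes on the other strand.

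Of 21 genes of the relay, all tested, 3 passed (14.3%, under the background of 31.6%), each higher under TMM scaling and below 0 under the epithelial scaling. Pik3cb, a catalytic subunit of PI3-kinase, rose from 24.2 ± 4.59 to 55.7 ± 19.3 CPM (SD, n = 3 each; log2 fold change -0.31 under the epithelial scaling). Foxo1, a transcription factor that AKT holds out of the nucleus and whose exons overlap Gm20402 on the other strand, rose by 0.67 on the log2 scale (edgeR, adjusted p = 0.00586; -0.85 under the epithelial scaling). Foxo4 rose by 0.52 (edgeR, adjusted p = 0.0406; -0.98 under the epithelial scaling), with the call lost without any knockout library (0.0998, 0.118 and 0.114 without replicates 1, 2 and 3) and without overexpression replicate 3 (0.0711), within 0.0235 to 0.118 over all alternatives. Mtor, which encodes the kinase at the centre of the relay, had a log2 fold change of 0.42 and just missed the threshold (edgeR, adjusted p = 0.0517).

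**Figure D5:**
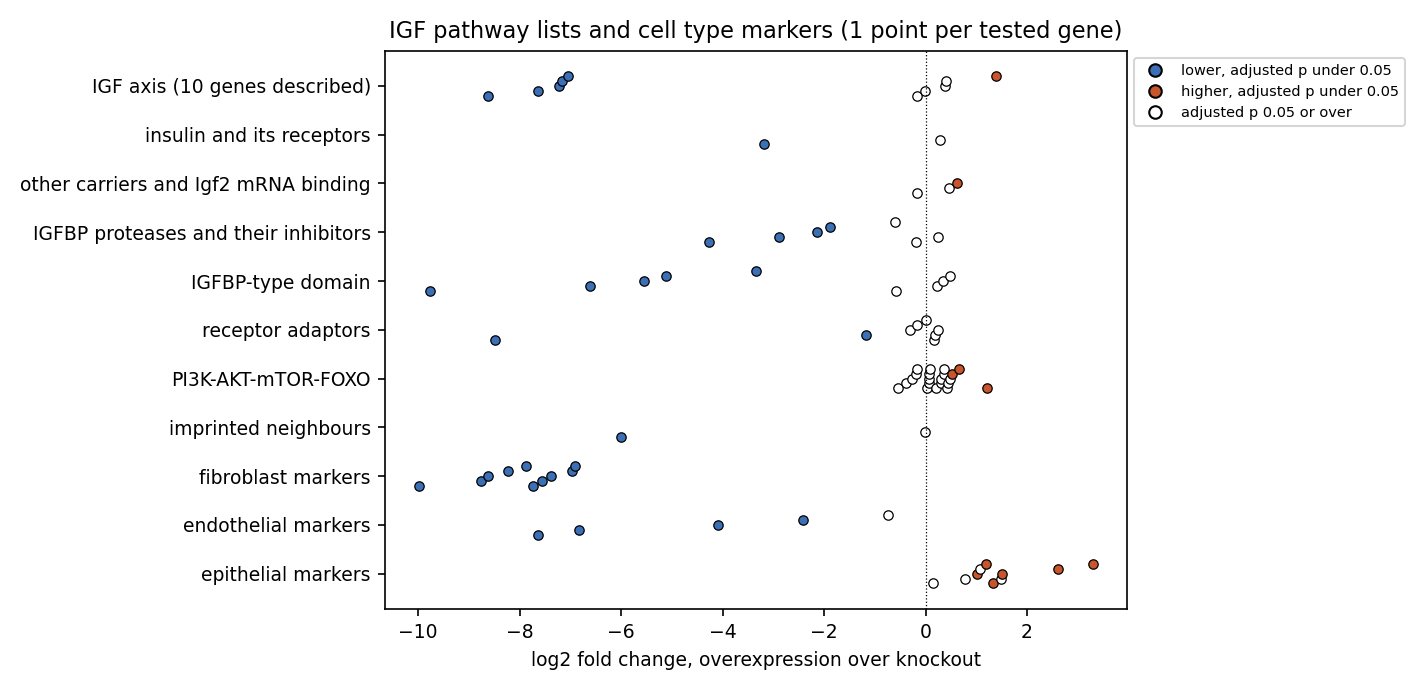
Log2 fold change of overexpression over knockout for each tested gene of the IGF axis, of 7 lists of other IGF pathway genes and of 3 lists of cell type markers; filled points have an adjusted p under 0.05. Genes of the PI3K-AKT-mTOR-FOXO list lie near 0, and the 5 IGF axis genes that fell lie within the span of the fibroblast markers.

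H19, the maternally expressed non-coding RNA that shares an imprinted domain with Igf2, changed where Igf2 did not fall. It had 3360, 6480 and 6204 counts with knockout and 42, 99 and 116 with overexpression, a fall from 161 ± 58.4 to 2.52 ± 1.09 CPM (SD, n = 3 each) and a log2 fold change of -5.99 (edgeR, adjusted p = 1.7e-05). H19 counts were 105 to 182 times those of Igf2 in the knockout libraries and 0.75 to 1.08 times in the overexpression libraries (exact two-sided permutation p = 0.1). The knockout values rest on 32, 43 and 34 Igf2 counts. They leave out Gm49394, which had 44 counts in knockout replicate 1 and would lower the ratio there. Airn, the antisense RNA of the Igf2r locus, was at 8.31 ± 2.31 and 8.24 ± 3.03 CPM (SD, n = 3 each) and did not pass (edgeR, adjusted p = 0.983).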

How the data were processed

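The authors deposited raw counts per gene, whole numbers with 1 column for each of 6 libraries. The submitters' processing notes name kallisto 0.44.0 and the build mm10 without a role. That program estimates counts, so the values may be rounded, and reads shared by gene models may have been divided between them. The annotation and strand setting are not given in the sources used here. Libraries were made from total RNA with a low-input kit, per the labels' protocols. Of 55481 rows, 96 (spike-in and construct sequences, at most 2.23e-05% of a library's counts) were left out. Symbols, positions and exon lengths came from GENCODE M21 (GRCm38) for 55144 IDs, with 241 unmatched.

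The function filterByExpr (counts of at least 10, in total at least 15) kept 18504 genes. Groups were compared with TMM and the quasi-likelihood test of edgeR 4.0.16 (R 4.3.3) with group as the only term, and p-values were adjusted (Benjamini-Hochberg) over all tested genes, threshold 0.05. Standard errors are the log2 fold change divided by the square root of F, and 95% intervals use the test's degrees of freedom. The test was also run on simulated counts, where it recovered 69 of 100 genes changed 4-fold and 26 of 100 changed 2-fold. Of 100 calls there, 5 were false. In that simulation 200 of 18054 genes were changed, whereas 31.6% of tested genes were called in the data. Its rates therefore need not hold for these libraries. A count of 0 allows up to 3 counts, or 0.0759 to 0.101 CPM, for counting error only. Alternatives were RLE, upper-quartile and epithelial scaling (the median ratio of 10 epithelial markers), no filter, robust dispersion, DESeq2 1.42.0, a replicate block, each library left out and, for shares, the length of the longest transcript. Named are all 10 genes, Sox2, up to 4 genes past the threshold in each direction of each pathway list, and the 3 nearest patterns of Igf1 and of Igf1r. Insr, Irs1, Irs2, Pappa, Ccn1, Mtor, Airn, Gm49394 and single markers were named after their values were seen. The genes and lists were chosen with earlier results of these data known. Permutation tests of ratios used log2 values with 0.5 added to each count. No batch is given in the labels.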

Additional observations from a re-analysis of the deposited data

How the results depend on the processing

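Igf1, Igfbp2, Igfbp4, Igfbp5 and Igfbp6 kept their direction and an adjusted p under 0.05 in all 13 alternatives, and the other 5 IGF axis genes did not all do so. Scaling to the epithelial markers moved most: it called 13675 genes (242 higher, 13433 lower), 9 IGF axis genes lower and 0 higher, and 46 other pathway genes, all 46 lower and 0 higher. Under it the log2 fold change turned to -0.11 for Igf2, -1.09 for Igf1r, -1.06 for Igfbp3, -1.26 for Insr, -1.26 for Irs2, -0.92 for Igf2bp2, -0.31 for Pik3cb, -0.85 for Foxo1, -0.98 for Foxo4, -1.05 for Mtor, -0.99 for Ccn1, -1.06 for Stam2, -1.04 for Gpbp1l1 and -1.12 for Proser1. Of the called genes 43.1% were higher in the TMM fit and 1.77% under the epithelial scaling. With TMM the 10 epithelial markers had a median log2 fold change of 1.27, so scaling to them lowers the log2 fold changes of all genes together. The median over all tested genes went from -0.016 to -1.52, and the calls under this scaling carry that shift. Why the epithelial markers were higher was not tested. DESeq2 called 2 IGF axis genes higher. Igfbp7, near 0, changed sign with RLE (0.0033), DESeq2 (0.0033) and no filter (0.014), and, with 1 library left out, ranged from -0.28 to 0.17 (above 0 without knockout replicate 2, at 0.053, and without overexpression replicates 1 or 3). Pappa ranged from -0.54 to 0.055 with 1 library left out (0.028 without overexpression replicate 2). Leaving out 1 library gave 4230 to 5821 called genes, 1446 to 2599 of them higher (1446 without knockout replicate 2, 1610 without knockout replicate 3), 0 to 1 IGF axis genes higher (0 without knockout replicate 1 or 3 or overexpression replicate 3), and 2 to 9 other pathway genes higher (2 without knockout replicate 2, 9 without overexpression replicate 2). With the longest transcript as length, the share of Igfbp2 with knockout went from 0.179% to 0.238%. The mean knockout shares of Igfbp6 and Igfbp3 then changed order, from 16.1% and 14.1% to 15.2% and 17.1%. No pairing by replicate number was visible: deviations of same-numbered libraries correlated across genes at 0.051, 0.022 and -0.040. Differently numbered libraries correlated at -0.067 to 0.050. With 3 libraries in each group this cannot show that they are unpaired. The replicate block called 5593 genes against 5848, and with it the calls of Pappa2 (edgeR, adjusted p = 0.0597), Foxo4 (0.059), Stam2 (0.0744) and Gpbp1l1 (0.0572) were lost, with no other change of call among the named genes for which it was computed (not for Airn, Gm49394 or most cell type markers).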

Other observations

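Some binding protein genes are chromosomal neighbours. Igfbp2 and Igfbp5 point towards each other on chromosome 1 with 5.46 kb and no other gene of the table between them, and both fell with overexpression. Igfbp1 and Igfbp3 lie 3.54 kb apart on chromosome 11 in the same arrangement, and there Igfbp3 had 10742 to 22917 counts in every library while Igfbp1 had 1 count in all 6 together. Igf2 and H19 lie 72.6 kb apart on chromosome 7, with the counts given above.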
